A study of Gallus gallus with 6 samples.

Results

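The subject here is a set of 11 chicken gene IDs that were expressed in cultured embryonic stem (ES) cells and were very low or absent in the stage X embryo. The members were chosen by their measured levels in these same libraries, so the difference between cells and embryos that defines them is described and not tested. An ID was kept when its mean level was 10 or more CPM (counts per 1000000 counts) in the cells and under 1 CPM in the embryos, with CPM taken over the 15900 IDs listed for both groups. It also had to be comparable between the groups' files. A comparable ID had the same set of transcript IDs in both, with mean lengths no more than 10% apart relative to the longer of them. Of the 15900 shared IDs, 5286 were comparable, and 1929 of these reached 10 CPM in the cells. The 11 members made up 0.208% of the comparable IDs and 0.57% of those at 10 CPM or more in the cells.

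RNA was sequenced from wild-type chicken ES cells at passage 10 and from dissociated cells of freshly laid wild-type embryos, 3 libraries per group. The cells came from stage X embryos and were kept on irradiated mouse embryonic fibroblasts in N2B27 medium with ovotransferrin, chicken LIF, IWR-1, Gö6983 and SB431542. The embryo cells are labelled as primary cells and not as a cultured line. The labels do not say how many lines, cultures or embryos stand behind the 3 libraries of a group, and the errors given may hold technical spread alone. Counts in shared IDs numbered 12456912 to 12840671 per cell library and 15484281 to 16485515 per embryo library, so that 3 counts in a library stood for 0.234 to 0.241 CPM in cells and 0.182 to 0.194 CPM in embryos.

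A chick embryo at laying is a disc of cells on the yolk that has not yet begun gastrulation, and its central cells are pluripotent, meaning that they can give rise to all tissues of the embryo. ES cells are expanded from such cells and held in self-renewal by cytokines and inhibitors. IWR-1 stabilises the destruction complex of the WNT pathway, Gö6983 blocks protein kinase C, SB431542 blocks the type I receptors of activin and NODAL, and LIF signals through STAT3. The files give gene IDs without names, and 0 of the 11 IDs and 0 of their 12 transcript IDs were found in the RefSeq gene table (assembly GRCg7b). Of all 15900 shared IDs, 0 were found there either, so the lookup failed for every ID and says nothing particular about the members. No name, function, position or sequence is therefore given for a member. For the same reason neither the ES cell label nor the presence of fibroblast RNA could be checked against marker genes, and a part of the mouse feeder cells in these values was not tested.

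The word silent was too strong for most members. Only ENSGALG00000043909 had 0 counts in all 3 embryo libraries, and the other 10 were each detected there, with 8 to 45 counts over the group. Together the 11 IDs had 22614 counts over the cell libraries, against 260 over the embryo libraries. They held 0.0596% ± 0.00173 of the shared-ID counts in cells and 0.000544% ± 0.000176 in embryos (SD, n = 3 each). In these bulk samples a lower value cannot be split into fewer expressing cells and less RNA per cell.

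**Figure D1:**
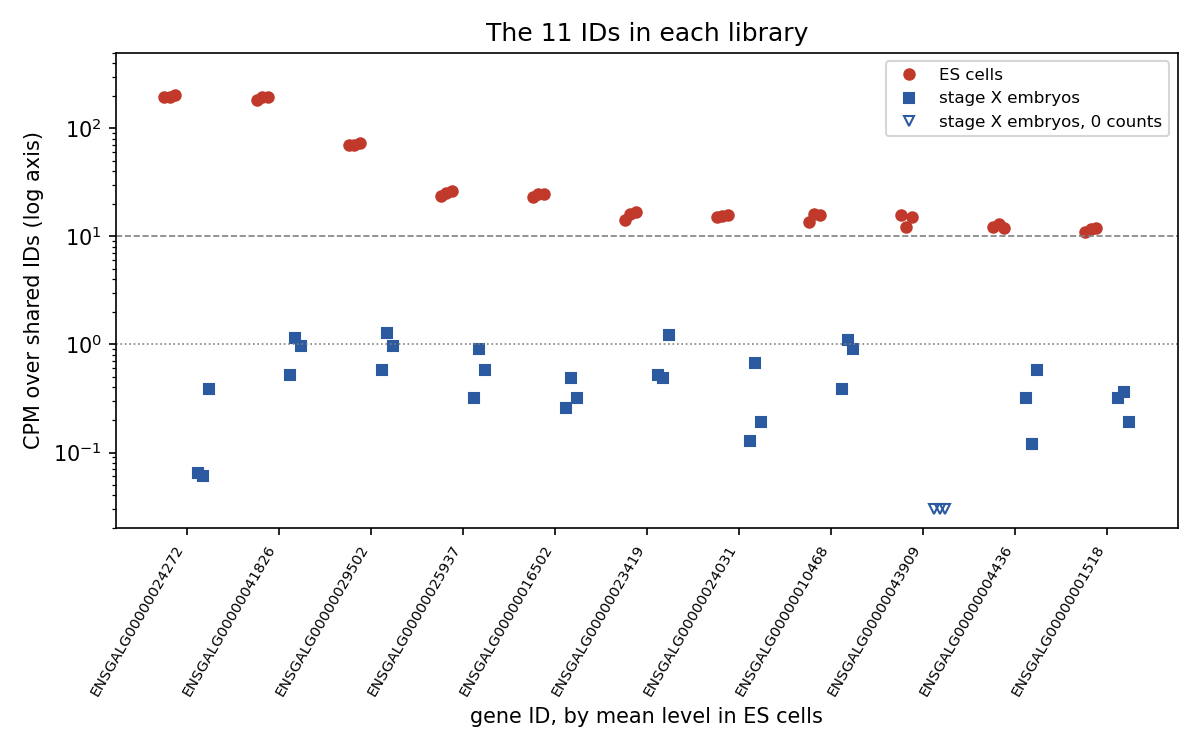
CPM of the 11 gene IDs in each of the 3 ES-cell libraries (red circles) and the 3 stage X embryo libraries (blue squares), on a log axis, ordered by mean level in ES cells. The dashed line marks 10 CPM and the dotted line 1 CPM, and open triangles drawn at 0.03 stand for libraries with 0 counts. A pair of IDs averages 199 and 192 CPM in the cells, 1 averages 71.0 CPM and 8 lie between 11 and 30 CPM, while embryo values reach at most 1.27 CPM.

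The levels in the cells fell into 3 ranges, as the plot of CPM by library shows. Above 100 CPM there were 2 members, ENSGALG00000029502 stood alone at 71.0 CPM, and the other 8 lay between 11 and 30 CPM. The 2 most abundant members held 65.5% of all member counts in the cells. The median of the 11 mean levels was 15.8 CPM, against 50.0 CPM for the 1918 other comparable IDs at 10 CPM or more in the cells.

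ENSGALG00000024272, with a single short transcript of 577 bases in the cell files and 584 in the embryo files, was the most abundant member. It had 195, 195 and 206 CPM in the cell libraries, against 0.0646, 0.0607 and 0.385 CPM in the embryo libraries. Those embryo values rest on 1, 1 and 6 counts. Its values thus lay close together among the cell libraries, and the third embryo library held most of the few embryo reads. The means were 198.7 ± 6.34 CPM in cells and 0.170 ± 0.186 CPM in embryos (SD, n = 3 each). Summed over libraries the ratio of cells to embryos was 1181, with a 95% counting interval of 599 to 2736. Without the third embryo library, 2 embryo counts were left and the ratio was 3175 (95% counting interval 879 to 26226). The value thus depends on this library. Both intervals share counts and cover counting error only, so their overlap is no sign of agreement.

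ENSGALG00000041826 was almost as abundant in the cells and has the shortest model of the set, 409 bases in the cell files and 417 in the embryo files. Its values were 185, 196 and 195 CPM in the cells, against 0.517, 1.15 and 0.963 CPM in the embryos. The embryo libraries held 8, 19 and 15 counts of it, so it was present in each of them. The ratio of summed counts per total was 217 (95% counting interval 160 to 301). Of the members, this ID and ENSGALG00000024272 were the only ones with models under 600 bases.

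ENSGALG00000029502, with a transcript of 2002 bases in the cell files and 2001 in the embryo files, was the third most abundant. It had 69.6, 70.8 and 72.7 CPM in the cells, against 0.581, 1.27 and 0.963 CPM in the embryos. With 45 counts over the embryo libraries it had the most embryo reads of the 11 and lay nearest to the embryo threshold. Its ratio of cells to embryos was 75 (95% counting interval 55.9 to 103).

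The next pair stood near 25 CPM. ENSGALG00000025937 had 23.9, 25.5 and 26.6 CPM in the cells, against 0.323, 0.910 and 0.578 CPM in the embryos, a ratio of 41.6 (95% counting interval 28.8 to 62.4). ENSGALG00000016502 had 23.2, 24.8 and 25 CPM in the cells, against 0.258, 0.485 and 0.321 CPM in the embryos, a ratio of 68.0 (42.3 to 117). The second of these is the only member with 2 transcripts, and its mean model length was 1332 bases in the cell files and 1350 in the embryo files. Every cell library lay at least 26.3-fold above the highest embryo library for the first of them and 47.8-fold for the other.

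A further group stood at about 15 CPM in the cells and held the members with the smallest ratios. ENSGALG00000010468 had 13.6, 16.2 and 15.7 CPM in the cells, against 0.387, 1.09 and 0.899 CPM in the embryos, and its ratio of 19.0 (95% counting interval 13.6 to 27.1) was the smallest of the set. ENSGALG00000023419 had 14.2, 16.3 and 17 CPM in the cells, against 0.517, 0.485 and 1.22 CPM in the embryos, a ratio of 21.5 (15.3 to 31.1). Both had 1 or more embryo libraries above 1 CPM, and their counting intervals overlapped. ENSGALG00000024031 was at a like level in the cells, with 15.2, 15.4 and 15.7 CPM, against 0.129, 0.667 and 0.193 CPM in the embryos. Its ratio was 45.9 (28.0 to 80.8), and its embryo reads came mainly from the second library, with 11 of 16 counts. Without that library, 5 embryo counts were left and the ratio was 95.9 (40.9 to 297). That value lies above the upper end of the interval from all libraries. The intervals share counts and cover counting error only, so their overlap does not show that the ratios agree.

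ENSGALG00000043909 was the only comparable ID at 10 CPM or more in the cells with 0 counts in every embryo library. It had 15.8, 12.2 and 15.2 CPM in the cells, from 203, 152 and 192 counts. For its total of 0 embryo counts, 3 counts over the group were taken as a bound, or 0.0631 CPM, which puts the cells 228-fold higher. Unlike the intervals of the other members, this bound leaves out the counting error of the cells. Its single transcript has 741 bases in the files of both groups, so for this ID the length of the model was alike. The other member with a model of equal length, ENSGALG00000001518 with 2359 bases, was not absent from the embryos. It had 11.1, 11.8 and 12.0 CPM in the cells, against 0.323, 0.364 and 0.193 CPM in the embryos, and a ratio of 39.5 (95% counting interval 23.3 to 72.8).

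ENSGALG00000004436, the longest model of the set with 2656 bases in the cell files and 2704 in the embryo files, completes the 11. It had 12.2, 13.1 and 11.9 CPM in the cells, against 0.323, 0.121 and 0.578 CPM in the embryos, a ratio of 36.9 (95% counting interval 22.5 to 65.1), and of 56.7 without the third embryo library. Leaving out single libraries moved the ratio by over 1.5 times for this ID, ENSGALG00000024272 and ENSGALG00000024031, and not for the other 7 detected members. Over all 10 detected members the lowest cell library was at least 11.6-fold above the highest embryo library. Every cell library lay above every embryo library for 11 of 11 members. This was so for 987 of the 1929 comparable IDs at 10 CPM or more in cells, members included. The rule makes such a separation likely, and it is not evidence beyond it.

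**Figure D2:**
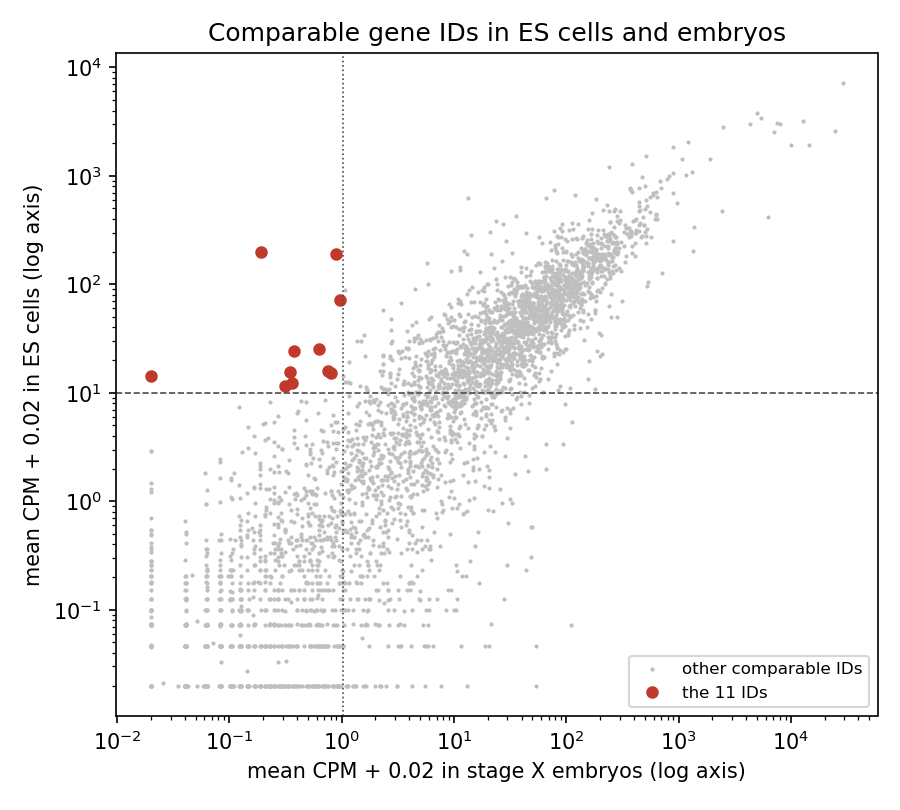
Mean CPM in ES cells (vertical) against mean CPM in stage X embryos (horizontal) for the 5286 comparable gene IDs, both on log axes after adding 0.02, with the 11 members in red and the other comparable IDs in grey. The dashed line marks 10 CPM in cells and the dotted line 1 CPM in embryos. Most grey points follow the diagonal, and the members sit in the upper left, 1 of them at 0 in embryos.

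Few comparable IDs came near this corner. Of the 1929 at 10 CPM or more in the cells, 1699 (88.1%) were also at 10 CPM or more in the embryos, 127 lay from 5 to under 10, 78 from 2 to under 5 and 14 from 1 to under 2. The embryo threshold cuts a continuous tail. Just outside it was ENSGALG00000003860, at 14.4 ± 0.459 CPM in cells and 1.01 ± 0.133 CPM in embryos, while the member just inside, ENSGALG00000029502, averaged 0.939 ± 0.347 CPM in embryos (SD, n = 3 each). On the cell side the member nearest the threshold was ENSGALG00000001518, at 11.6 ± 0.503 CPM in cells, and the nearest excluded ID was ENSGALG00000000498, at 8.52 ± 0.700 CPM in cells and 0.687 ± 0.305 CPM in embryos. With the groups exchanged, 36 comparable IDs (0.681%) had 10 CPM or more in embryos and under 1 CPM in cells.

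Per unit of length the 2 short, abundant members stood out further. On the deposited TPM scale, which divides by the effective length, ENSGALG00000041826 averaged 1131 ± 35.2 TPM in cells and 5.81 ± 2.12 TPM in embryos, and ENSGALG00000024272 averaged 633 ± 15.3 TPM in cells and 0.610 ± 0.658 TPM in embryos (SD, n = 3 each). They ranked 23rd and 36th among the 5286 comparable IDs by mean TPM in the cells, against ranks 232 and 219 by CPM. Their effective lengths in the first cell library were 197 and 364 bases, so a small error in fragment length weighs more on these TPM values than on those of long models. At the other end, ENSGALG00000001518 and ENSGALG00000004436 averaged 6.25 ± 0.212 and 5.87 ± 0.307 TPM in cells (SD, n = 3). The order of the members therefore differed between the scales, and ENSGALG00000043909, which ENSGALG00000025937 exceeded by CPM in cells, stood above it by TPM, at 31.6 ± 4.24 against 15.2 ± 0.677 TPM (SD, n = 3 each).

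Members varied little among the cell libraries, and so did the other comparable IDs at 10 CPM or more. The coefficient of variation (CV, the SD as a percentage of the mean) had a median of 4.33% over the 11, against 3.79% over the 1918 other comparable IDs at 10 CPM or more. Those IDs were more abundant, and no comparison at matched level was made. Without the first cell library the order turned, with medians of 2.49% for the members and 2.85% for the others. With all 3 libraries the lower and upper quartiles of the CV were 3.21% and 7.20% for the members, against 2.30% and 6.14% for the others. The lowest values were 1.78% for ENSGALG00000024031, 2.16% for ENSGALG00000029502 and 3.19% for ENSGALG00000024272. The highest were 13.4% for ENSGALG00000043909, 9.30% for ENSGALG00000023419 and 8.97% for ENSGALG00000010468. A ratio of observed to Poisson variance had a median of 0.952 for the members and 1.06 for the others. For counting noise alone this ratio averages 1, but with 3 libraries its median lies below 1, so these medians cannot be set against 1. Among the members the ratio was largest, at 3.24, for ENSGALG00000043909, whose second cell library was the low one. It was 2.56 for both ENSGALG00000024272 and ENSGALG00000041826, the most abundant members.

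**Figure D3:**
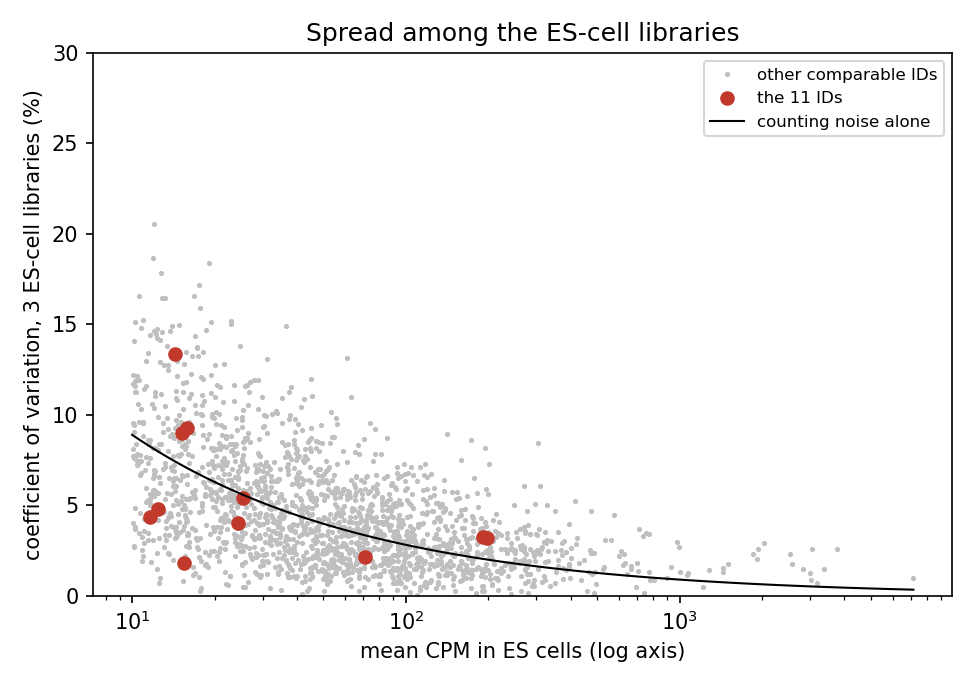
Coefficient of variation over the 3 ES-cell libraries (vertical, percent) against mean CPM in ES cells (horizontal, log axis) for comparable gene IDs at 10 CPM or more, with the 11 members in red and the others in grey. The line is the value that counting noise alone would give over many libraries at the mean depth of these. Members lie on both sides of the line, between 1.78% and 13.4%. With 3 libraries the median value from counting noise lies below the line, so a member's side of it is not a measure of excess noise.

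The first cell library was the lowest of the 3 for 9 of the 11 members, and for 30.4% of the other comparable IDs at 10 CPM or more. The count was also 9 with TMM-scaled CPM. The summed level of the members was 578, 597 and 613 CPM in the cell libraries, so the differences behind this order were small. Among the embryo libraries the summed level was 3.42, 6.61 and 6.29 CPM. For the 10 members detected there, the second library was the highest for 7 and the first for 0. Over the 1094 other comparable IDs detected in embryos at under 1 CPM, the first embryo library was the highest for 41.8% and the second for 32.0%. The first embryo library held 53 reads of the members, against 109 and 98 in the others. These orders were not tested, since all members share the same libraries.

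Most transcript models of the members were short and had a single transcript, which is given as a description. The median length in the cell files was 1364 bases (range 409 to 2656), against 2345 bases for the 1918 other comparable IDs at 10 CPM or more. Of the 11, 10 (90.9%) had 1 transcript, against 78.2% of the others. Counts were whole numbers, within 1e-09, in all 6 libraries for 11 of 11 members and for 87.6% of the others. RSEM gives fractions where reads are shared between genes, and no fractions show in the members' counts. Whether reads of the members also match other sequences was not tested.

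Identical models were a minority among the members and among the other IDs, and the comparison between them was not tested. Here an identical model means a single transcript of equal length in both groups' files. It was found for 2 of the 11 (18.2%), against 33.3% of the 1918 others. The length was greater in the embryo files for 7 members (63.6%), against 44% of the 1918 others, and in the cell files for 2. Among the 7 is ENSGALG00000016502, whose length is a mean over 2 transcripts. The length difference was 5% or less for 9 members, and was 5.45% for ENSGALG00000024031 and 7.52% for ENSGALG00000010468, the member nearest to the length limit. The nearest excluded ID, ENSGALG00000016755, was at 10.7 ± 1.01 CPM in cells and 0.337 ± 0.100 CPM in embryos (SD, n = 3 each), with a length difference of 10.1%.

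The gene model criterion removed most IDs that passed both CPM thresholds, and also most IDs at 10 CPM or more in cells whatever their embryo level. Of the 7831 shared IDs at that level in cells, 1929 were comparable. Without the criterion, 71 of the 15900 shared IDs (0.447%) passed both CPM thresholds. Of the 71, 37 had other transcripts in the 2 sets of files and 34 had the same transcripts. Of these 34, the lengths were over 10% apart for 23. The cell files gave the greater length for 13 of the 23 (56.5%). There were 1276 IDs in all with the same transcripts, lengths over 10% apart and 10 CPM or more in cells. Of these, the cell files gave the greater length for 23.7%. It was at least 2-fold greater in the cell files for 9 of the 23 and for 50 of the 1276. In the embryo files it was so for 0 of the 23 and 126 of the 1276. IDs with several transcripts were not left out. RSEM weights the length of such an ID by transcript level, so it can differ without a change of model. The share that passed the embryo threshold, out of IDs at 10 CPM or more in cells, was 0.312% for identical models (2 of 640), 0.698% for the other comparable IDs (9 of 1289), 1.80% for the same transcripts at lengths over 10% apart (23 of 1276) and 0.800% for other transcripts (37 of 4626). The part of the gene models in these shares was not tested. Each group's files list their own gene models. Group and gene model set therefore cannot be told apart for any of the 11 members. For 2 of them the transcript ID and its length were equal in both groups' files, and no other part of the models was compared.

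**Figure D4:**
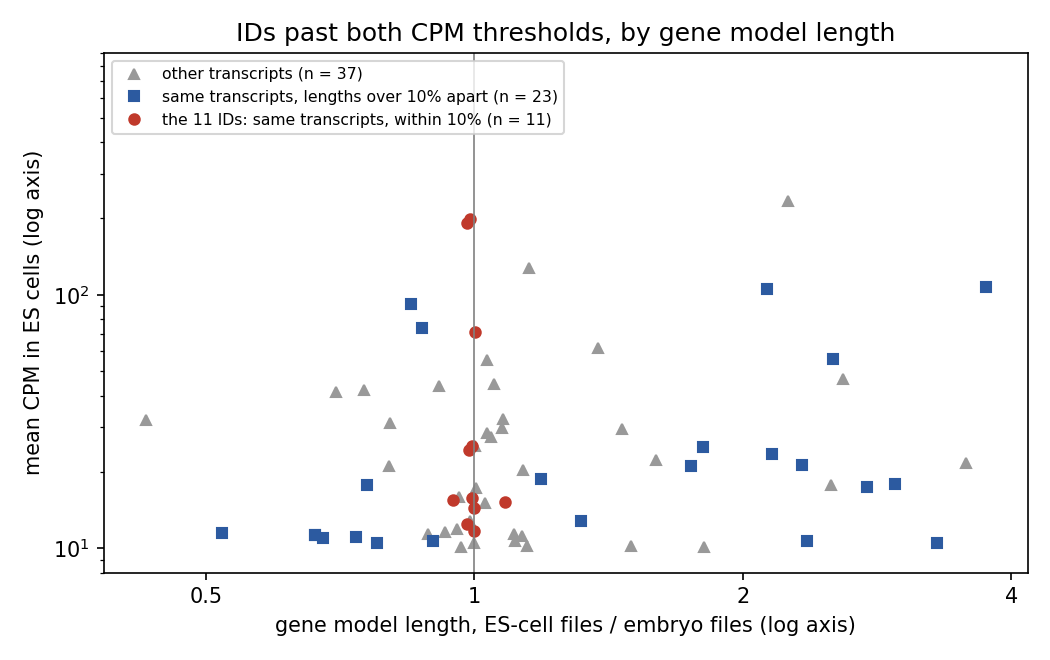
Mean CPM in ES cells (vertical, log axis) against a length ratio (horizontal, log axis) for the 71 shared gene IDs past both CPM thresholds. The ratio is the gene model length, a mean over transcripts, in the ES-cell files divided by that in the embryo files. The 11 members (red) lie close to a ratio of 1, between 0.945 and 1.08, while the 23 IDs with the same transcripts but lengths over 10% apart (blue) run from 0.522 to 3.74 and the 37 with other transcripts (grey) from 0.428 to 3.56.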

How the data were processed

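Per the labels' protocols, total RNA was extracted with a column kit and made into BGISEQ-500 libraries. Tools named without versions, per the submitters' processing notes, are FastQC, STAR, RSEM and DESeq2. For the genome build and annotation, the sources used here name none. The authors deposited, per the file headers, RSEM expected counts per gene ID (estimated read counts, not normalized), TPM (scaled to one common total per file) and the mean and effective length of each ID's transcripts. The files of the groups list different gene models.

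Libraries were grouped by title. CPM was the expected count per 1000000 counts in the 15900 shared IDs, with no rounding. The members and the measures were chosen with earlier results of these data known. The rule for named IDs (extremes of level, of spread and of distance to the thresholds) covers all members but ENSGALG00000004436. That ID is named too, since the 11 members are the subject. Lists of cell type markers could not be applied to IDs without names. No test between groups was run on the members, since the rule uses that contrast, and no p-value is given. Ratios use summed counts per summed totals, with an exact (Clopper-Pearson) binomial interval. Intervals and floors cover counting error only. No libraries of a group were alike within counting noise: chi-square per degree of freedom was 1.46 to 2.17 for pairs of cell libraries and 10.5 to 18.6 for pairs of embryo libraries. The CPM part of the rule was checked on simulated counts with members planted well clear of both thresholds. That check covers the code, and not IDs near a threshold or the gene model criterion. Other scalings, thresholds and gene model criteria, and leaving out each library, were tried as alternatives, with edgeR 4.0.16 (TMM factors) and DESeq2 1.42.0 (size factors) in R 4.3.3. The rest was done in Python 3.11.15 with pandas 2.3.3, SciPy 1.17.1 and matplotlib 3.10.9.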

Additional observations from a re-analysis of the deposited data

Results flagged for a closer look

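IDs listed only in the cell files could not enter the rule, because no embryo value exists for them, and they hold signal. Of 8981 such IDs, 689 (7.67%) had a mean of 10 CPM or more in the cells, relative to the counts of shared IDs. In each of the 3 cell libraries, where 3 counts stand for 0.234 to 0.241 CPM, 650 reached it. That share was far smaller than among the 15900 shared IDs, of which 7831 had such a mean. Whether any of the IDs listed only in the cell files was absent from the embryos was not tested.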

How the results depend on the processing

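The count of 11 depends on the thresholds and on the gene models more than on scaling. It was 11 with TMM factors, DESeq2 size factors or rounded counts, 12 with CPM over all IDs of a file and 16 on deposited TPM. All 11 were kept in these settings except on TPM, which kept 8: ENSGALG00000041826 was above 1 TPM in embryos, and ENSGALG00000004436 and ENSGALG00000001518 were under 10 TPM in cells. The count was 28 and 5 at 5 and 20 CPM in cells, 6 and 25 at 0.5 and 2 CPM in embryos, 1 at 0 embryo counts and 7 with the thresholds met in every library. Length limits of 1% and 25% gave 5 and 18, no length limit 34, identical models 2 and all shared IDs 71. Measuring the length difference against the shorter model or the mean length, added after seeing the data, left 11. Leaving out each library gave 11 to 14. Without the first embryo library ENSGALG00000041826 and ENSGALG00000029502 dropped out, at 1.06 and 1.12 CPM in embryos. The exchanged rule gave 36, then 73 and 16 at 5 and 20 CPM in embryos, 23 at 0.5 CPM in cells, 2 at 0 cell counts, 22 with every library, 74 with no length limit, 14 for identical models, 118 for all shared IDs and 31 to 37 leaving out libraries. It was above the members' count in each setting listed for both.

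The members' share of cell counts was 0.0571% over all IDs of a file and 0.194% of TPM, and 0.0588% to 0.0605% leaving out libraries. Their median level was 15.2 CPM over all IDs of a file and 15.3 to 16.7 leaving out libraries. The median CV was 2.49% to 4.63% leaving out libraries, lowest without the first cell library. At a length limit of 1%, 100% of the members had 1 transcript and the median length was 2002 bases; the median effective length was 1149. What caused these shifts was not tested. No paired analysis was possible because the results on the members are counts and levels that come from no fit, and the labels do not say that sample numbers pair cells with embryos. Depth limits the embryo side: 9 of the 33 member values there rest on 3 counts or fewer.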
